A study of Mus musculus with 14 samples.

Results

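The genes described are 47 DNA replication and S phase genes, taken by name from a list of replication, licensing and nucleotide supply genes. All 47 were among the 24340 gene symbols of the data, and all had at least 1 RPKM (a read count adjusted for gene length and sequencing depth) in all 14 libraries. The RNA came from germ cells of male C57BL/6 mice and was sequenced at postnatal day 3 (P3) and day 7 (P7), with 2 libraries in each of 7 groups. The study removed Jmjd1a and Jmjd1b (in the data Kdm3a and Kdm3b), whose enzymes take methyl groups off lysine 9 of histone H3. Deletion used Vasa-Cre, a Cre recombinase expressed from the promoter of the germline gene Vasa.

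The P3 WT group was wild type. Animals of the P3 Ctrl and P7 Ctrl groups carried Vasa-Cre and were heterozygous at both genes (Jmjd1a-/+, Jmjd1b-/+), so the controls also lack 1 copy of each. P3 Jmjd1aKO carried Vasa-Cre with Jmjd1a-/- and Jmjd1b-/+, and P3 Jmjd1bKO carried Vasa-Cre with Jmjd1a-/+ and Jmjd1b-/-. The double knockouts, P3 DKO and P7 DKO, carried Vasa-Cre with both genes -/-. Nothing in the labels says that paired libraries are from different animals, and p-values then reflect no more than the scatter of these libraries, which may be technical.

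DNA replication starts when the origin recognition complex, with Cdc6 and Cdt1, loads the ring-shaped MCM helicase on origins in G1 phase. The kinase Cdc7 with Dbf4, and Cdc45, Mcm10 and the GINS complex, turn the loaded helicase into a moving fork, where polymerases held by the Pcna clamp copy both strands. E2F transcription factors drive many of these genes at the G1/S boundary, and cyclin E with its kinase pushes cells across it. In the neonatal testis, germ cells leave an arrested state and return to the cell cycle as spermatogonia in the first days after birth.

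Because E2F factors drive many such genes, promoters were searched for E2F motifs on both strands, from 250 bases before to 50 after the RefSeq start. The motif letters were TTTCCCGC, TTTCGCGC, TTTGCCGC and TTTGGCGC. A match was found in 13 of the 39 promoters that could be read for the 47 genes (33.3%), and most of them held none. Matches were in 502 of 10990 promoters of all tested genes (4.6%) and in 704 of 27025 promoters in the table (2.6%). The 8 genes with a match upstream of the start are printed here to show those letters in place (RefSeq, GRCm38.p6), 5′ to 3′ on the strand of the gene. Capitals mark the matches, and adjoining capitals of more than 8 letters are overlapping matches on opposite strands. Windows that touch an annotated exon are kept to at most 30 bases.
Mcm6: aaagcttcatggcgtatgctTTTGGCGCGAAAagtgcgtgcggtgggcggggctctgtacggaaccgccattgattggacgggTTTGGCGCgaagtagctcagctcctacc
Mcm5: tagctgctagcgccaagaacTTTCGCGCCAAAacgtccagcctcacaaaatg
Mcm7: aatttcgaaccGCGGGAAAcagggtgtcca
Cdc6: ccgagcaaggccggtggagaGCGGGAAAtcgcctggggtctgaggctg
Orc1: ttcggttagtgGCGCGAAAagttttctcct
Gins3: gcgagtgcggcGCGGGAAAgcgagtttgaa
Rfc3: acgtcgcacgcTTTCGCGCtc
Pola1: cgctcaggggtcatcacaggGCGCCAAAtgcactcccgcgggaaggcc

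The Mcm6 window lies at chr1:128359725-128359835 on the minus strand and holds 3 matches, which begin 110, 106 and 47 bases before the start. The Mcm5 window, at chr8:75109336-75109387 on the plus strand, holds an overlapping pair that begins 153 and 149 bases before the start. The single match of Mcm7 (chr5:138172030-138172059, minus) begins 165 bases before the start. In Cdc6 (chr11:98907993-98908040, plus) and in Pola1 (chrX:93632266-93632313, minus) it begins 138 bases before. The match lies closer in Gins3 (chr8:95633507-95633536, plus), at 41 bases, in Orc1 (chr4:108579416-108579445, plus), at 27 bases, and in Rfc3 (chr5:151651209-151651229, minus), at 10 bases. A match is a description of letters and does not show binding.

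Other cell cycle motifs were spread differently. The NF-Y motif CCAAT was found in 23 of the 39 promoters (59.0%), against 43.0% of those of tested genes. The CHR motif TTTGAA, known from genes of G2 and mitosis, was found in 7 of the 39 (17.9%), against 13.9% of tested genes. In 17 promoters of G2 and mitosis genes the CHR motif was in 12 (70.6%) and the E2F motif in 1 (5.9%). In 44 promoters of other replication genes the E2F motif was in 17 (38.6%). No promoter entry was matched for Ccne2, Gins1, Gins2, Gins4, Mcm4, Pole, Prim2 and Rfc2.

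**Figure D1:**
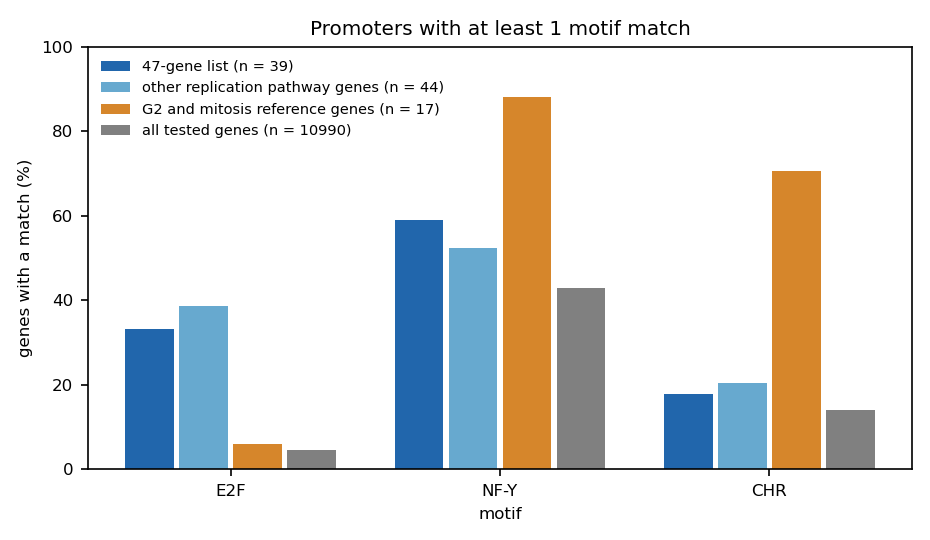
Bars give the percentage of promoters with at least 1 match to the E2F, NF-Y or CHR motif, for the 47-gene list (39 promoters), other replication genes (44), G2 and mitosis genes (17) and all tested genes (10990). E2F matches were in 33.3% of the list and 5.9% of the G2 and mitosis genes, and CHR matches in 17.9% and 70.6%.

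Depth estimated from the RPKM steps was 13.5 to 14.9 M (mega) fragments in P3 WT, 21.4 to 24.8 in the P7 libraries and 25.9 to 49.4 in the other P3 libraries. Kdm3a read 28.4 and 26.3 RPKM in P3 Ctrl, 9.83 and 9.84 in P3 Jmjd1aKO and 12.1 and 14.3 in P3 DKO, and Kdm3b read 10.2 and 13.5 in P3 Ctrl, 4.72 and 7.51 in P3 Jmjd1bKO and 4.26 and 4.48 in P3 DKO. At P3 both genes were therefore lower where the label says they were removed, and neither was at 0. Their P7 values are not given here. The summed RPKM of 8 germ cell markers was 1198 to 1609 in every library, and none of the 8 was at 0, but single markers moved in different directions at P7. In P7 DKO against P7 Ctrl 4 of them fell (Zbtb16, Nanos3, Tdrd9 and Ddx4) and Dazl rose, whereas none was called in P3 DKO against P3 Ctrl. Replicate 2 of P3 Jmjd1aKO and replicate 2 of P3 Jmjd1bKO stood apart in Sertoli cell transcripts: the summed RPKM of 8 Sertoli markers was 458 and 570 there and 18.7 to 109 in the other 12 libraries. Amh was 108 and 150 RPKM and Inha 165 and 206 in those 2 libraries, and none of the 8 markers was at 0 in both libraries of a group. Summed Leydig, stromal and peritubular, and erythroid markers were also higher there than in the other 12 libraries. Endothelial markers were not, at 13.66 and 11.54 against 0.9623 to 26.51. Leukocyte markers were higher only in replicate 2 of P3 Jmjd1aKO, at 8.016 against 2.336 to 7.646. In replicate 2 of P3 Jmjd1bKO they were 6.018, within that range. Leydig markers were 37.7 and 37.3, against 2.23 to 5.64, and stromal and peritubular markers 58.6 and 59.6, against 6.03 to 20.4. Erythroid markers were 22.7 and 7.47, against 0.272 to 4.3. Below, these libraries are called rich in Sertoli transcripts for short. For the comparisons of the single knockouts, medians and the fitted changes of named genes are given with and without these libraries. Counts without them are given for only some of these comparisons.

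The genes were well expressed throughout. Their mean over the 14 libraries ran from 5.02 RPKM for Ccne2, a cyclin E, to 256 RPKM for Pcna, the sliding clamp, with a median of 61.0 RPKM. All 47 are annotated as protein coding, on 14 chromosomes, and only Pola1 is on a sex chromosome (X). In the annotation, exons of 10 of them overlap another gene of the data, among them Gins2 with Gse1, Chaf1a with Ubxn6, Rfc2 with Lat2, and Mcm7 with the microRNA genes Mir25 and Mir93. Whether the authors' counting used strand is not given in the sources used here, so reads of those pairs may be shared. Processed pseudogenes named for Pcna and Tyms may also take reads from these 2 genes.

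At P3 the means of WT, Ctrl, Jmjd1aKO and DKO fell in 1 order for most genes, while the median change of Jmjd1bKO from Ctrl was 0.06 on the log2 scale and fell on either side of 0 with 1 library left out. The P3 DKO mean was the lowest of the 5 P3 groups for 45 of the 47 genes (95.7%), against 28.8% of all tested genes, and the P3 WT mean was the highest for 39 (83.0%, against 31.8%). The order WT over Ctrl over Jmjd1aKO over DKO held for the means of 40 genes (85.1%), against 14.7% of tested genes. Without the 2 libraries rich in Sertoli transcripts, a check added after the data were seen, the counts were 41, 40 and 37, against 25.1%, 35% and 14.9% of tested genes. Over all 7 groups P7 DKO had the highest mean for 20 genes, against 29.6% of tested genes, and P3 WT for another 20, against 12.3%. Because these are bulk samples, fewer cells in S phase and less RNA per cell cannot be told apart.

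The median over the 47 genes, in log2(RPKM + 1), gives the same picture library by library. It was 6.11 and 6.08 in P3 WT, 5.69 and 5.93 in P3 Ctrl, 5.78 and 5.95 in P3 Jmjd1bKO, 5.56 and 5.73 in P3 Jmjd1aKO, and 5.43 and 5.23 in P3 DKO. At P7 it was 6.01 and 6.01 in Ctrl and 6.10 and 6.15 in DKO. The pooled SD between replicates of this median was 0.106. Both P3 DKO libraries were below the other 12, while the P3 Ctrl libraries overlapped those of both single knockouts. The median of all tested genes ranged only from 3.30 to 3.42.

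**Figure D2:**
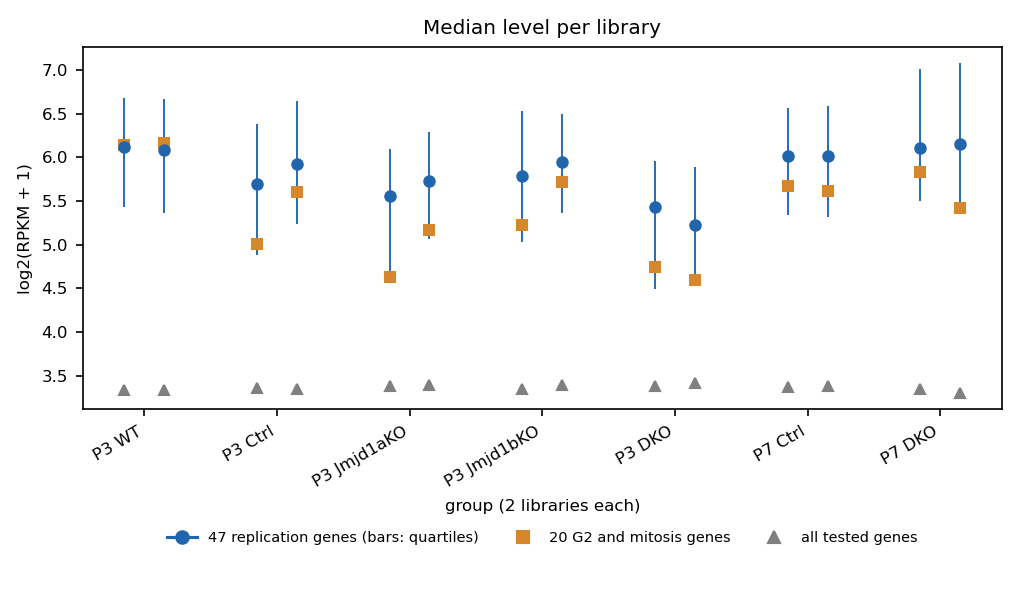
Circles give the median log2(RPKM + 1) of the 47 genes in each library with bars for the quartiles, squares the median of 20 G2 and mitosis genes and triangles the median of all tested genes. The 2 P3 DKO circles, at 5.43 and 5.23, are the lowest.

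**Figure D3:**
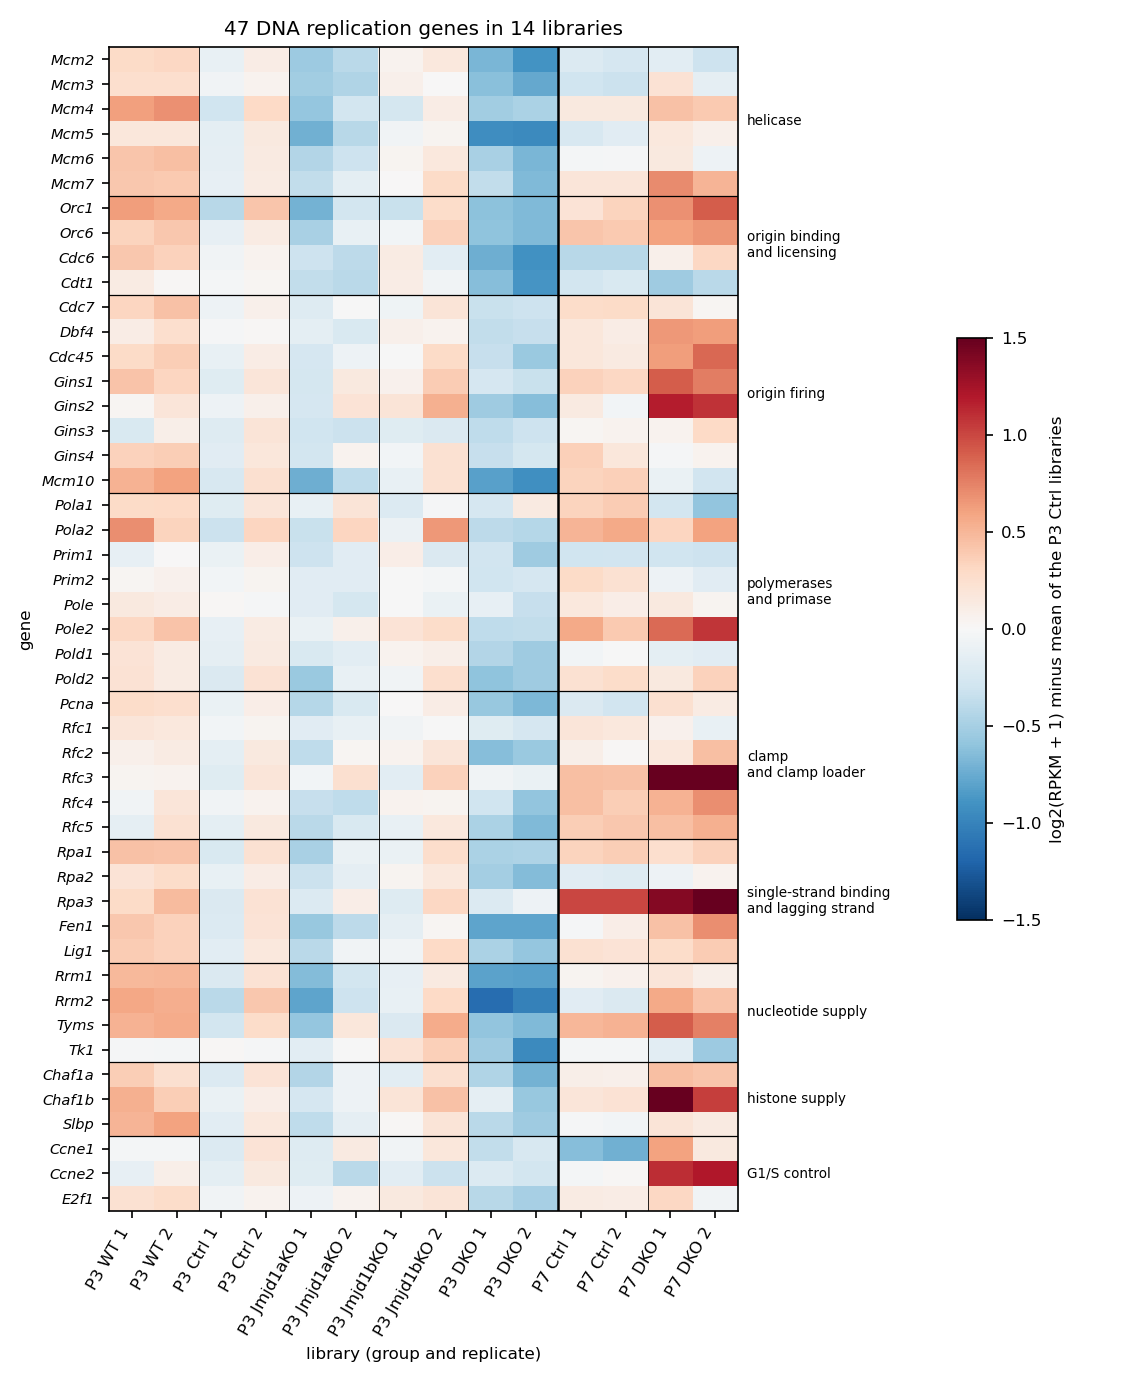
Each row is 1 of the 47 genes, grouped by role, each column a library, and the colour is log2(RPKM + 1) less the mean of the 2 P3 Ctrl libraries. The P3 DKO columns are blue in nearly every row, and Gins2, Rfc3, Rpa3, Chaf1b and Ccne2 are the deepest red in the P7 DKO columns.

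Levels of single genes are given as RPKM in replicates 1 and 2. A change is the log2 difference in RPKM + 1 ± SE, fitted by limma over all 14 libraries, called past an adjusted p of 0.05 (Benjamini-Hochberg over 14772 genes, two-sided). The pseudocount makes the changes of low genes slightly smaller. An exact permutation test of 2 libraries against 2 cannot go below a two-sided p of 0.333, so single genes were not tested that way.

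The comparison of P3 DKO with P3 Ctrl asks what joint loss of both genes does at day 3. Of the 47 genes, 16 fell and none rose, against 2.29% of tested genes called lower and 2.18% called higher. The median change was -0.50, against 0.01 over all tested genes, and all 47 changes were below 0. In 44 genes both DKO libraries were below both Ctrl libraries, a pattern seen in 27.9% of tested genes. At an unadjusted p under 0.05 the count was 36, against 24.5% of tested genes. Summed stromal and peritubular markers were 12.7 and 10.96 RPKM in P3 Ctrl and 20.2 and 20.4 in P3 DKO, and the part of this in the result was not tested. None of the tested markers of other cell types was called in this comparison.

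The helicase and the licensing factors that load it took 7 of the 16 falls. Mcm5, a helicase subunit, stood at 119 and 147 RPKM in P3 Ctrl and 68.9 and 67.6 in P3 DKO. The groups do not overlap, and Mcm5 fell by 0.94 ± 0.12 on the log2 scale (1.92-fold, adjusted p = 0.0121). Mcm2 went from 170 and 199 to 114 and 98.3 (-0.79 ± 0.11, adjusted p = 0.0126) and Mcm3 from 199 and 214 to 134 and 120 (-0.70 ± 0.11, adjusted p = 0.0194). Mcm6 was also called, whereas Mcm4 and Mcm7 were not, at -0.50 and -0.52. Cdc6, the loader, went from 13.6 and 14.6 to 8.11 and 7.04 (-0.82 ± 0.13, adjusted p = 0.0189). Cdt1, its partner, went from 81.2 and 85.1 to 53.2 and 44.5 (-0.76 ± 0.10, adjusted p = 0.0123). Orc6, of the origin recognition complex, fell by 0.63 ± 0.15 (adjusted p = 0.0463). The other origin subunit of the list, Orc1, did not pass. It stood at 14.3 and 26.3 RPKM in P3 Ctrl and 12.3 and 11.9 in P3 DKO.

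Nucleotide supply was the other group in which most genes fell, 3 of 4. Ribonucleotide reductase makes deoxynucleotides, and its subunit Rrm2 had the largest fall of the list. Rrm2 stood at 33.9 and 60.7 RPKM in P3 Ctrl and 20 and 21.96 in P3 DKO (-1.08 ± 0.25, adjusted p = 0.0418). The 2 Ctrl libraries differ widely but lie above both DKO libraries. The other subunit, Rrm1, went from 80.8 and 110 to 53.4 and 53.4 (-0.81 ± 0.16, adjusted p = 0.0312). Tk1, the salvage enzyme thymidine kinase, went from 58.9 and 57.4 to 39.9 and 29.6 (-0.74 ± 0.15, adjusted p = 0.0327).

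Among firing factors and fork proteins the calls were sparser. Mcm10 (-0.86 ± 0.18, adjusted p = 0.0323) and Dbf4 (-0.36 ± 0.08, adjusted p = 0.0355) were the firing factors that fell, 2 of 8. Of 8 polymerase and primase genes, Pold1, the catalytic subunit of polymerase delta, was called (-0.49 ± 0.09, adjusted p = 0.031). Pcna stood at 250 and 288 RPKM in P3 Ctrl and 181 and 167 in P3 DKO, without overlap, and fell by 0.62 ± 0.10 (adjusted p = 0.0199), while none of the 5 Rfc genes, which code for the loader of that clamp, was called. The flap endonuclease gene Fen1 (-0.79 ± 0.14, adjusted p = 0.0239) and the single-strand binding gene Rpa2 (-0.58 ± 0.11, adjusted p = 0.0269) fell as well. No gene of histone supply or G1/S control passed, and the best expressed of each, the histone mRNA binding protein Slbp and the transcription factor E2f1, were at -0.47 and -0.46 with adjusted p of 0.0587 and 0.0537.

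These calls rest on few libraries. Leaving out P3 Ctrl replicate 1 left 12 calls and leaving out its replicate 2 left 0, and for P3 DKO the counts were 6 without replicate 1 and 0 without replicate 2, while the median stayed between -0.68 and -0.35. The count was 9 after quantile normalization and 0 when only the 4 libraries compared were fitted. It was 28 without the 2 libraries rich in Sertoli transcripts, which enter this comparison only through the shared estimate of spread. The share of all tested genes called in those refits is not given here.

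The wider pathway was counted in the same fit. Of 56 other replication genes 8 fell and none rose, with a median change of -0.36. The largest falls were those of Uhrf1, which brings the maintenance methyltransferase to new DNA (-0.80 ± 0.17, adjusted p = 0.0358), the checkpoint adaptor Clspn (-0.73 ± 0.13, adjusted p = 0.0236), the dUTPase gene Dut (-0.72 ± 0.18, adjusted p = 0.0489) and the deoxycytidine kinase gene Dck (-0.70 ± 0.10, adjusted p = 0.0141). Of 20 G2 and mitosis genes 2 fell, with a median change of -0.65, beside -0.50 for the 47 genes. Their median was -0.72 in P3 Ctrl against P3 WT, beside -0.30 for the 47 genes. Against P3 Ctrl it was -0.33 in P3 Jmjd1aKO, beside -0.24, and 0.19 in P3 Jmjd1bKO, beside 0.06. In P3 DKO against P3 Jmjd1aKO it was -0.34, beside -0.25.

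At P3 the groups that keep at least 1 copy of Jmjd1a or Jmjd1b gave no calls against their reference. P3 Ctrl against P3 WT asks what the driver with 1 copy of each gene changes. None of the 47 genes was called by limma (0.704% of tested genes were), 21 had an unadjusted p under 0.05 (26.6% of tested genes did), and the median change was -0.30. In 33 genes both Ctrl libraries were below both WT libraries, against 29.5% of tested genes. Slbp stood at 133 and 166 RPKM in P3 Ctrl and 212 and 226 in P3 WT (-0.56 ± 0.12, adjusted p = 0.0624). Rrm1 stood at 80.8 and 110 in P3 Ctrl and 133 and 134 in P3 WT (-0.49 ± 0.16, adjusted p = 0.102). Neither gene's groups overlap, yet neither difference passed. The P3 WT libraries were also the shallowest, and the part of depth in this was not tested. Without the 2 libraries rich in Sertoli transcripts, which enter this comparison only through the shared estimate of spread, 7 genes were called lower. For that refit, and for the refits of the comparisons below, the share of all tested genes called is not given here.

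Loss of Jmjd1a with 1 Jmjd1b copy left (P3 Jmjd1aKO against P3 Ctrl) gave no call by limma among the 47 genes, where 0.0338% of tested genes were called, 15 had an unadjusted p under 0.05 (10% of tested genes did), and the median change was -0.24. Both Jmjd1aKO libraries were below both Ctrl libraries in 22 genes, against 18.1% of tested genes. Pcna stood at 199 and 229 RPKM there, below 250 and 288 in P3 Ctrl (-0.33 ± 0.10, adjusted p = 0.359). Cdt1 stood at 64.3 and 62.6, below 81.2 and 85.1 (-0.38 ± 0.10, adjusted p = 0.313). E2f1 overlapped between the groups, at 46.9 and 51.6 against 47.7 and 51.4. Without replicate 1 or replicate 2 of either group the count stayed at 0 and the median lay between -0.39 and -0.11. Without the 2 libraries rich in Sertoli transcripts the median was -0.34, and the remaining Jmjd1aKO library was below both Ctrl libraries in 42 genes, against 33.4% of tested genes. The changes were then -0.43 ± 0.11 for Pcna, -0.36 ± 0.12 for Cdt1 and -0.08 ± 0.15 for E2f1, none of them called.

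Loss of Jmjd1b with 1 Jmjd1a copy left (P3 Jmjd1bKO against P3 Ctrl) gave no call by limma either, with 0.0203% of tested genes called, none of the 47 genes at an unadjusted p under 0.05 (1.81% of tested genes were), and a median change of 0.06. Both Jmjd1bKO libraries were above both Ctrl libraries in 6 genes, against 9.97% of tested genes. Pcna stood at 270 and 290 RPKM in P3 Jmjd1bKO, overlapping P3 Ctrl (0.06 ± 0.10). Rrm1 overlapped as well, at 86.9 and 104 RPKM (0.01 ± 0.16). The median was -0.04 without replicate 2 of P3 Jmjd1bKO, which is rich in Sertoli transcripts, and -0.06 without P3 Ctrl replicate 1. Without both libraries rich in Sertoli transcripts the remaining Jmjd1bKO library was above both Ctrl libraries in 11 genes, against 27.9% of tested genes, and the changes of Pcna and Rrm1 were 0.01 ± 0.11 and -0.12 ± 0.16.

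The double knockouts were then set against each single knockout. Against P3 Jmjd1bKO, which asks what losing Jmjd1a adds, 30 of the 47 genes were lower and none higher, where 7.85% and 8.63% of tested genes were called lower and higher. The median change was -0.62, and 40 genes had an unadjusted p under 0.05, against 34.2% of tested genes. All roles were represented, with 5 of 6 helicase genes, 3 of 4 licensing genes, 5 of 8 firing genes, 4 of 8 polymerase and primase genes, 4 of 6 clamp genes, 3 of 5 single-strand and lagging-strand genes, 3 of 4 nucleotide genes, 2 of 3 histone supply genes and 1 of 3 G1/S genes. Rrm2 (-1.18 ± 0.25, adjusted p = 0.018) and Tk1 (-1.03 ± 0.15, adjusted p = 0.00914) had the largest changes. Gins2, a firing factor, stood at 24.5 and 31.3 RPKM in P3 Jmjd1bKO and 14.3 and 13.3 in P3 DKO (-0.96 ± 0.16, adjusted p = 0.0114). E2f1 stood at 54.9 and 56.9 against 36.9 and 34.6 (-0.63 ± 0.12, adjusted p = 0.0131). In both genes the groups are apart. This comparison shares its P3 DKO libraries with the one against P3 Ctrl, so the lists of calls are not independent. Of 20 G2 and mitosis genes 11 were called lower here, with a median change of -0.84. Of 56 other replication genes 18 were called lower, with a median change of -0.43.

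The count against P3 Jmjd1bKO was 17 and 0 when P3 DKO lost replicate 1 or replicate 2, 34 without P3 Jmjd1bKO replicate 1 and 3 without P3 Jmjd1bKO replicate 2, the library rich in Sertoli transcripts. It was 14 without both libraries rich in Sertoli transcripts, and the median was then -0.50. In that fit Tk1 (-0.95 ± 0.19, adjusted p = 0.0377) and Gins2 (-0.79 ± 0.13, adjusted p = 0.0308) were called, whereas Rrm2 (-0.97 ± 0.27, adjusted p = 0.0722) and E2f1 (-0.61 ± 0.15, adjusted p = 0.0542) were not. The count was 19 after quantile normalization and 0 when only the 4 libraries compared were fitted.

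Against P3 Jmjd1aKO, which asks what losing Jmjd1b adds, no gene of the 47 was called by limma, with 0.0338% of tested genes called. The median change was -0.25, 12 genes had an unadjusted p under 0.05 (11.3% of tested genes did), and both DKO libraries were lower without overlap in 32 genes, against 19.9% of tested genes. E2f1 stood at 46.9 and 51.6 RPKM in P3 Jmjd1aKO and 36.9 and 34.6 in P3 DKO (-0.45 ± 0.12, adjusted p = 0.402). Rpa2 stood at 140 and 159 against 123 and 110 (-0.35 ± 0.11, adjusted p = 0.407). Both genes were apart between the groups, and neither passed. Without the 2 libraries rich in Sertoli transcripts the median was -0.13, and 34 genes were lower without overlap, against 34.7% of tested genes. The changes of E2f1 and Rpa2 were then -0.38 ± 0.15 and -0.26 ± 0.12.

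At day 7 the same loss gave another picture. In P7 DKO against P7 Ctrl 14 of the 47 genes rose and 3 fell, where 17.4% of tested genes were called higher and 16.1% lower. The share of the list that rose, 14 of 47, stands beside a high background, and the median change was 0.20, against 0.02 over all tested genes. The unadjusted p was under 0.05 for 21 of the 47 genes, beside 43.6% of all tested genes, and so near the background. Summed markers of 2 other cell types were lower in P7 DKO. The summed RPKM of 4 endothelial markers was 8.10 and 8.16 in P7 Ctrl and 1.77 and 0.962 in P7 DKO, and that of 7 stromal and peritubular markers 18.9 and 18.95 against 6.75 and 6.03. Of these, Cdh5, Kdr, Col1a1 and Pdgfra fell, and 1 stromal marker was at 0 in both P7 DKO libraries. Summed Sertoli markers were 78.03 and 88.6 against 60.1 and 109, with none called. Among the germ cell markers Zbtb16, a marker of undifferentiated spermatogonia, went from 83.4 and 82.1 RPKM to 32.1 and 13.4 (-1.94 ± 0.30, adjusted p = 0.00112). Nanos3 went from 27.9 and 28.2 to 15.1 and 13.73, and Dazl rose from 382 and 396 to 582 and 613. The part of these shifts in the changes of the 47 genes was not tested. The genes with the largest rises sit at firing, clamp loading, histone supply and G1/S control.

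**Figure D4:**
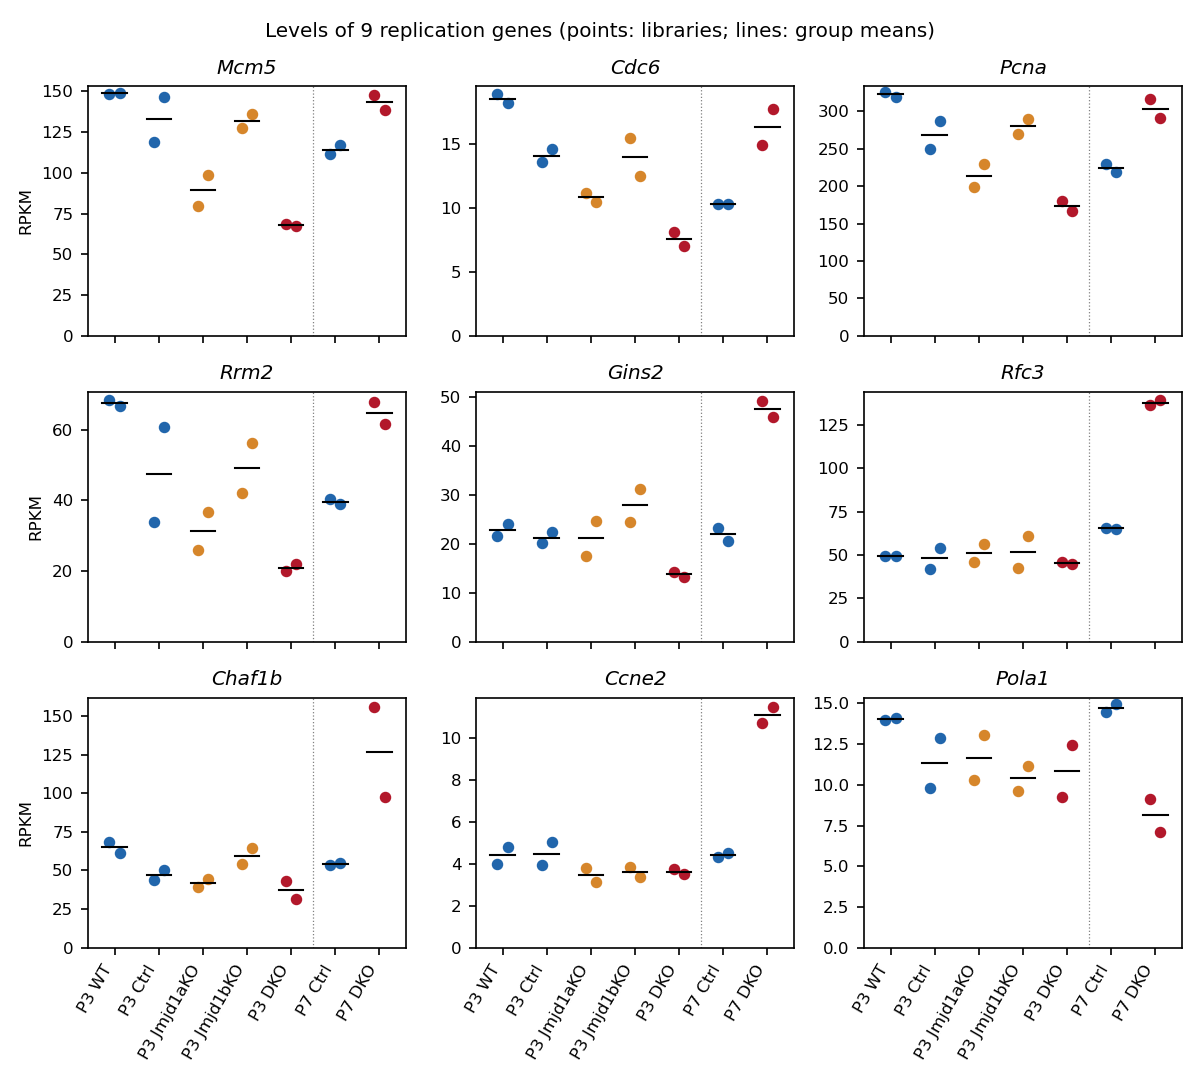
Points are RPKM in each library and lines the mean of each group of 2, for 9 genes chosen after their values were seen, with the P7 groups right of the dotted line. Mcm5, Cdc6, Pcna and Rrm2 are lowest in P3 DKO, whereas Gins2, Rfc3, Chaf1b and Ccne2 are highest, and Pola1 lowest, in P7 DKO.

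Gins2 stood at 23.3 and 20.5 RPKM in P7 Ctrl and 49.3 and 46.0 in P7 DKO (1.09 ± 0.16, adjusted p = 0.00102). Rfc3, a clamp loader subunit, stood at 65.5 and 65.2 in P7 Ctrl and 137 and 139 in P7 DKO (1.07 ± 0.17, adjusted p = 0.00116). The P7 DKO libraries of both genes are above all 12 others. Chaf1b, a subunit of the assembly factor that puts new histones behind the fork, stood at 53.6 and 54.9 in P7 Ctrl and at 156 and 97.8 in P7 DKO (1.17 ± 0.21, adjusted p = 0.00248). Its P7 DKO libraries differ from each other but both lie above every other library. The cyclin E genes Ccne1 and Ccne2 both rose, Ccne1 from 16.8 and 15.9 to 41.1 and 29.9 (1.06 ± 0.18, adjusted p = 0.00208) and Ccne2 from 4.33 and 4.54 to 10.7 and 11.5 (1.16 ± 0.15, adjusted p = 0.000489).

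Smaller rises were spread over other roles. Cdc6 went from 10.4 and 10.4 RPKM to 14.95 and 17.8 (0.61 ± 0.13, adjusted p = 0.00601). Cdc45, which travels with the helicase, rose by 0.59 ± 0.13 (adjusted p = 0.00778), and Gins1 and Dbf4 rose by 0.51 and 0.50. Pole2, the second subunit of polymerase epsilon, rose by 0.48 ± 0.13 (adjusted p = 0.0195). Pcna went from 230 and 219 to 316 and 291 (0.43 ± 0.10, adjusted p = 0.0094), Fen1 rose by 0.53 ± 0.14 (adjusted p = 0.0172), and of the helicase genes Mcm7 (0.43 ± 0.14, adjusted p = 0.04) and Mcm3 (0.35 ± 0.11, adjusted p = 0.0356) passed. In nucleotide supply none of 4 genes was called, and the best expressed, Rrm1, was at 0.09 ± 0.16.

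The 3 falls were Pola1, Prim2 and Mcm10. Pola1 and Prim2 code for the catalytic subunit of polymerase alpha and the large primase subunit, 2 parts of the complex that starts new strands. Pola1 stood at 14.4 and 14.95 RPKM in P7 Ctrl and 9.11 and 7.12 in P7 DKO (-0.79 ± 0.18, adjusted p = 0.00921). Prim2 stood at 63.6 and 61.3 in P7 Ctrl and 49.3 and 46.0 in P7 DKO (-0.38 ± 0.07, adjusted p = 0.00347). The other 2 subunits of that complex on the list, Pola2 and Prim1, were not called, at -0.07 and -0.01. Mcm10 stood at 38.7 and 39.5 in P7 Ctrl and 28.3 and 24.8 in P7 DKO (-0.54 ± 0.18, adjusted p = 0.0387), the only gene of the 47 called lower in DKO at both ages. Cdc6, Dbf4, Fen1, Mcm3 and Pcna were the 5 genes called lower in DKO at P3 and higher in DKO at P7.

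After quantile normalization the split at P7 was 10 higher and 6 lower. The count of 17 became 11 without P7 Ctrl replicate 1, 8 without P7 Ctrl replicate 2, 15 without P7 DKO replicate 1 and 10 without P7 DKO replicate 2.

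Of the 56 other replication genes, 14 rose and 7 fell at P7, with a median change of 0.22. The transcription factor gene E2f2 rose from 2.73 and 3.47 RPKM to 7.57 and 7.62 (1.08 ± 0.19, adjusted p = 0.00204). Samhd1, which breaks down deoxynucleotides, fell from 50.3 and 51.7 to 21.4 and 20.01 (-1.26 ± 0.16, adjusted p = 0.000448). Skp2, of the ligase that marks cell cycle inhibitors for destruction, fell by 1.03 ± 0.16 on the log2 scale (adjusted p = 0.00111), and the repressor gene E2f6 fell by 1.004 ± 0.11 (adjusted p = 0.000235). None of the 20 G2 and mitosis genes was called by limma at P7, 1 had an unadjusted p under 0.05, and their median change was -0.10.

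**Figure D5:**
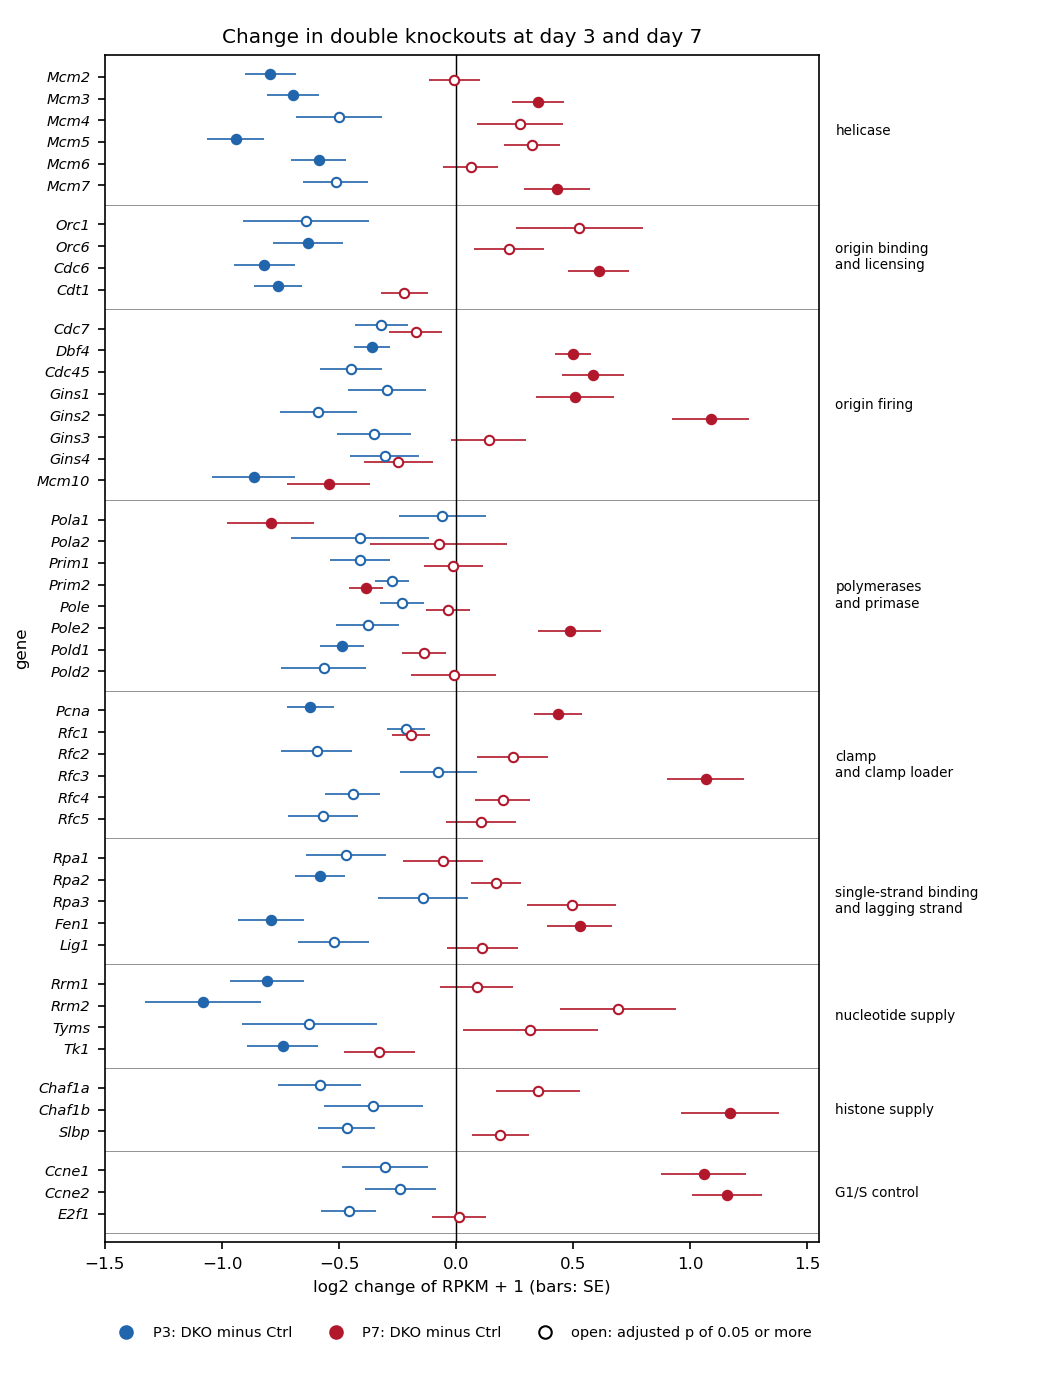
Points are log2 changes of RPKM + 1 in DKO against Ctrl at P3 (blue) and P7 (red) with SE bars, for the 47 genes by role, and filled points are past an adjusted p of 0.05. All 47 blue points are below 0, and the red points run from -0.79 for Pola1 to 1.17 for Chaf1b.

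Whether the DKO change differed between the ages was tested as an interaction. It was above 0 and called for 27 of the 47 genes and below 0 and called for none, where 12.2% of tested genes were called above and 10.7% below. The median difference was 0.77, and 35 genes had an unadjusted p under 0.05, against 37.4% of tested genes. Rrm2 (1.77 ± 0.35, adjusted p = 0.00727), Gins2 (1.68 ± 0.23, adjusted p = 0.00165), Chaf1b (1.52 ± 0.30, adjusted p = 0.00685) and Cdc6 (1.43 ± 0.18, adjusted p = 0.00129) had the largest differences. The 2 ages contribute in unequal parts. The DKO values at P3 and P7 were -1.08 and 0.69 for Rrm2, called only at P3, and -0.59 and 1.09 for Gins2, called only at P7. The count was 15 after quantile normalization, 17 when replicate 2 of P3 Ctrl or of P3 DKO was left out, and 17 and 16 when P7 Ctrl lost replicate 1 or 2. Among the 56 other replication genes 21 were called above 0 and 3 below, and among the 20 G2 and mitosis genes 2 and 0.

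Age was compared in controls and in double knockouts. From P3 Ctrl to P7 Ctrl 4 of the 47 genes rose and 2 fell, where 9.94% of tested genes were called higher and 13.4% lower, and the median change was 0.14. Rpa3, the small subunit of the single-strand binding complex, rose from 44.2 and 59.9 RPKM to 104 and 104 (1.002 ± 0.19, adjusted p = 0.0081). Pole2 rose by 0.48 ± 0.13 (adjusted p = 0.0303), Rfc4 by 0.41 ± 0.12 (adjusted p = 0.0325) and Prim2 by 0.26 ± 0.07 (adjusted p = 0.0332). Ccne1 went from 23.1 and 31.1 to 16.8 and 15.9 (-0.68 ± 0.18, adjusted p = 0.027) and Cdc6 from 13.6 and 14.6 to 10.4 and 10.4 (-0.41 ± 0.13, adjusted p = 0.046). Each of these 6 genes was apart between the ages. The count was 1 or 2 when P3 Ctrl lost replicate 1 or 2, 0 without either P7 Ctrl library, 3 with no filter on low values and 10 without the 2 libraries rich in Sertoli transcripts.

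Other replication genes that rose with age in controls included Rnaseh2a (0.63 ± 0.14, adjusted p = 0.0133), the catalytic subunit of an enzyme that cuts RNA out of DNA. Samhd1 (0.61 ± 0.16, adjusted p = 0.0264), Skp2 (0.59 ± 0.16, adjusted p = 0.0272) and the E2F-binding gene Rb1 (0.57 ± 0.14, adjusted p = 0.0213) rose too. In all, 7 of the 56 rose and 6 fell, where 9.94% of tested genes were called higher and 13.4% lower. The median change of the 56 genes was 0.04.

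From P3 DKO to P7 DKO 41 of the 47 genes rose and none fell, where 27.8% of tested genes were called higher and 30.5% lower. The median change was 0.88, against -0.03 over all tested genes, and both P7 DKO libraries were above both P3 DKO libraries in 44 genes, against 38.7% of tested genes. All helicase genes (6), licensing genes (4), single-strand and lagging-strand genes (5), histone supply genes (3) and G1/S genes (3) rose. Chaf1b (1.72 ± 0.21, adjusted p = 0.000164), Gins2 (1.72 ± 0.16, adjusted p = 6.03e-05) and Rpa3 (1.64 ± 0.19, adjusted p = 0.000136) had the largest rises. Rfc3 (1.59 ± 0.17) and Rrm2 (1.58 ± 0.25) followed. The 6 genes not called were Gins4, Pola1, Prim1, Prim2, Rfc1 and Tk1, so 3 of the 4 subunits of polymerase alpha with primase are among them. The count was 35 to 40 with 1 library left out. Of 56 other replication genes 41 rose and 1 fell, and of 20 G2 and mitosis genes 18 rose, with a median of 0.87. The age comparisons share the P3 and P7 libraries of the DKO comparisons and also differ in depth and in summed markers of other cell types. From P3 DKO to P7 DKO endothelial markers went from 17.6 and 17.9 RPKM to 1.77 and 0.962. Stromal and peritubular markers went from 20.2 and 20.4 to 6.75 and 6.03, and Sertoli markers from 26.1 and 35.6 to 60.1 and 109. In controls endothelial markers went from 26.5 and 15.9 to 8.10 and 8.16, and Sertoli markers from 22.6 and 21.3 to 78.03 and 88.6. The part of depth and of these markers was not tested.

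Genes with and without an upstream or downstream E2F match in the promoter window were set side by side. In P3 DKO against P3 Ctrl the median change was -0.52 for the 13 genes with a match and -0.52 for the 26 without. In P7 DKO against P7 Ctrl it was 0.32 and 0.18. The genes with a match thus held both Rfc3 (1.07) and Pola1 (-0.79) at P7, whose windows both carry 1 upstream match.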

How the data were processed

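RNA of male germ cells was measured in 14 libraries (AllPrep DNA/RNA Micro and TruSeq Stranded mRNA LT kits, per the labels' protocols). The deposited values are RPKM per gene made by the authors; per the submitters' processing notes TopHat2 2.1.1, Cufflinks 2.1.1 and mm10 were used, and the annotation is not given in the sources used here. Tested were the 14772 of 24340 genes that reached 1 RPKM in 2 or more libraries, on log2(RPKM + 1) with limma 3.58.1 in R 4.3.3 (trended eBayes, 1 coefficient per group, 7 residual degrees of freedom), with Benjamini-Hochberg adjustment of the p-values of each comparison (10 in all) and a threshold of 0.05. The model was tested on simulated data.

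Depth was estimated from the RPKM steps of low genes with a single transcript. Of the values used, 66.2% to 76.6% were at most 0.2 from whole fragments (40% by chance), so depth is approximate and no intervals were drawn from it. Coordinates are from GENCODE M21 on GRCm38 and promoters from RefSeq on GRCm38.p6.

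The 47 genes, the other lists, the motifs and the tests were chosen with earlier results of these data known. In each comparison the text names up to 3 called genes of each role with the largest change, or the best expressed gene of a role without calls, and further genes for the counts they belong to. Of other replication genes it names the 4 largest called changes in DKO against Ctrl at each age and in the age change of controls. Alternatives were a pseudocount of 0.1, no filter, median-centred or quantile-normalized libraries, a replicate block, only the groups compared, and leaving out libraries. A lone library was assumed to vary as the other groups do.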

Additional observations from a re-analysis of the deposited data

Results flagged for a closer look

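For 27 of the 47 genes the change in DKO against Ctrl differed between P7 and P3 by the interaction test of limma, always with the larger value at P7. The difference (P7 less P3, log2) was 1.77 for Rrm2, 1.68 for Gins2, 1.52 for Chaf1b, 1.43 for Cdc6, 1.40 for Ccne2, 1.36 for Ccne1, 1.32 for Fen1 and 1.26 for Mcm5. It was 1.14 for Rfc3, 1.06 for Pcna, 1.05 for Mcm3, 1.03 for Cdc45, 0.94 for Mcm7, 0.93 for Chaf1a, 0.90 for Rrm1 and 0.86 for Pole2, Orc6 and Dbf4. The remaining differences were 0.84 for Rfc2, 0.80 for Gins1, 0.79 for Mcm2, 0.75 for Rpa2, 0.67 for Rfc5, 0.66 for Slbp, 0.65 for Mcm6, 0.64 for Rfc4 and 0.54 for Cdt1. The DKO values at P3 and P7 were -0.76 and -0.22 for Cdt1 and -0.79 and -0.01 for Mcm2, both called only at P3, and -0.08 and 1.07 for Rfc3, called only at P7.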

How the results depend on the processing

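Of 1892 values of named genes under the alternatives, 1545 kept their direction and side of the threshold, 316 lost the call, 11 gained one and 20 changed sign, all 20 for changes that were not called. With quantile normalization the count of called genes was 9 for P3 DKO against P3 Ctrl, 19 against P3 Jmjd1bKO and 15 for the interaction, and the medians were -0.36, -0.41 and 0.43; the median for P7 DKO against P3 DKO was 0.59. Without the 2 libraries rich in Sertoli transcripts the counts were 7 (P3 Ctrl against P3 WT), 28 (P3 DKO against P3 Ctrl), 14 (against P3 Jmjd1bKO) and 10 (age in controls), and the medians were -0.0362 (P3 Jmjd1bKO against P3 Ctrl), -0.13 (P3 DKO against P3 Jmjd1aKO) and -0.50 (against P3 Jmjd1bKO). Without them, checked after the data were seen, 42 genes in place of 22 had P3 Jmjd1aKO below P3 Ctrl without overlap. For P3 Jmjd1bKO above P3 Ctrl the number was 11 in place of 6. The shares of tested genes were then 33.4% in place of 18.1% and 27.9% in place of 9.97%. Each of these knockout groups held 1 library in that check. With only the groups compared, fewer libraries stood behind the spread, and the P3 DKO counts against P3 Ctrl and P3 Jmjd1bKO were 0. With no filter the count for age in controls was 3. The cause of these shifts was not tested. For the counts of called genes under the alternatives, the share of all tested genes is not given here. Scalings moved the median of all genes by less than 0.1.

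With 1 library left out, counts and medians ranged from 0 to 2 and -0.42 to -0.16 (P3 Ctrl against P3 WT), 0 to 0 and -0.39 to -0.11 (P3 Jmjd1aKO against P3 Ctrl), 0 to 0 and -0.0566 to 0.236 (P3 Jmjd1bKO against P3 Ctrl), 0 to 12 and -0.68 to -0.35 (P3 DKO against P3 Ctrl), 0 to 0 and -0.37 to -0.13 (P3 DKO against P3 Jmjd1aKO), 0 to 34 and -0.73 to -0.50 (against P3 Jmjd1bKO), 8 to 15 and 0.18 to 0.24 (P7 DKO against P7 Ctrl), 0 to 2 and 0.0331 to 0.264 (age in controls), 35 to 40 and 0.86 to 0.91 (age in DKO), and 16 to 31 and 0.62 to 0.88 (interaction).

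With the replicate block the counts were 2 (P3 Ctrl against P3 WT), 22 (P3 DKO against P3 Ctrl), 33 (against P3 Jmjd1bKO), 20 (P7 DKO against P7 Ctrl), 9 (age in controls), 42 (age in DKO) and 32 (interaction). Deviations of same-numbered libraries correlated at -0.13 to 0.58 across genes. The highest value was that between the single knockouts. Their replicate 2 libraries were both rich in Sertoli transcripts, with depth estimated at 26.7 and 25.9 M fragments. The labels do not say what a replicate number marks, and the numbers are taken only as names.

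Sign changes were small. Under quantile normalization Cdt1 was 0.000464 (P3 Ctrl against P3 WT), E2f1 0.0837 (P3 Jmjd1aKO against P3 Ctrl) and Rrm1 -0.0794 (P7 DKO against P7 Ctrl), and in P3 Jmjd1bKO against P3 Ctrl Cdt1 was -0.0119, Pcna -0.0212 and Rrm1 -0.0428. Median centring gave Rrm1 -0.00541 there. With 1 library left out that comparison gave Cdt1 from -0.0527 to 0.109, Pold1 from -0.0702 to 0.205, Pcna from -0.0392 to 0.164, Rpa2 from -0.0169 to 0.216, Rrm1 from -0.209 to 0.231 and Slbp from -0.0558 to 0.266, and without both libraries rich in Sertoli transcripts Rrm1 was -0.117. E2f1 in P3 Jmjd1aKO against P3 Ctrl ran from -0.0785 to 0.0577, and for age in controls Rrm1 from -0.17 to 0.269 and Slbp from -0.188 to 0.133.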
